A study of Mus musculus with 30 samples.

Results

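Replication-dependent histone genes encode the bulk histones that package newly made DNA. They were chosen by name and by measured counts: all genes that are not pseudogenes, whose mouse symbol begins with Hist1h, Hist2h, Hist3h or Hist4h, and whose count summed over the 30 libraries of the study was at least 100. Of 57186 gene identifiers, 70 had such a symbol and 3 of these were pseudogenes. Of the other 67 genes, 41 reached the minimum: 5 of the linker histone H1, 3 of H2A, 13 of H2B, 9 of H3 and 11 of H4. The remaining 26 lay below it, and 7 of them had 0 counts. Just above the minimum stood Hist1h2ai, Hist1h2bn and Hist1h2bm with summed counts of 105, 110 and 111, and just below it Hist1h2bf, Hist1h2ab and Hist1h2ac with 73, 67 and 58. Because the minimum used the same counts, a gene that is high in some group was more likely to be kept. Hist1h2ai would fall below it without any 1 of 8 groups, Hist1h2bn without any 1 of 5 and Hist1h2bm without any 1 of 3.

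The study followed 2 mouse lines under cycloheximide, an inhibitor of translation elongation, at 0.1 µg/mL. NIH/3T3 is an embryonic fibroblast line and was grown in DMEM with 10% FBS. CGR8 is an embryonic stem cell line and was grown in N2B27 with 2i and LIF. Both lines carried the same label for genotype, ROSA26 SLT knock-in, so that no group lacks it. RNA was taken after 0, 1, 2, 5 and 48 h, with 3 replicates (A, B and C) of each line and time, in 10 groups. The 0 h libraries are the controls of their line, although their treatment label also names the drug.

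Histone protein is needed mostly in S phase, when the genome is copied, and the messages of these genes rise and fall with DNA synthesis. Unlike other messenger RNAs they usually end in a conserved stem-loop instead of a poly(A) tail, and the stem-loop binding protein Slbp holds that end through processing, translation and decay. Their decay is coupled to translation, and blocking translation is known to stabilise them. A smaller number of histone genes can also give polyadenylated RNA, mainly outside S phase. Illumina's stranded mRNA ligation chemistry was used, which captures poly(A) tails and is known to take up little RNA that ends in the stem-loop. The 41 genes together took 23129 counts, 0.0032% of all counts.

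The stem-loop is shown because it separates this class of RNA from other messages. In the GENCODE M21 transcripts (GRCm38), 31 of the 41 genes held a match to the histone stem-loop consensus, against 0.31% of 21901 protein-coding genes. The match is 16 bases long, with 6 bases in each arm and 4 loop bases, which are in capitals. The following forms were found.
Stem-loop of 15 genes, Hist1h1c among them: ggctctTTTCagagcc
Stem-loop of 6 H4 genes: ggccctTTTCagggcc
Stem-loop of 5 genes: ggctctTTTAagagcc
Stem-loop of Hist1h4i and Hist2h4: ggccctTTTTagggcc
Stem-loop of Hist1h4a: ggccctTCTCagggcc
Stem-loop of Hist1h4j: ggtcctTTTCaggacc
Stem-loop of Hist1h3g: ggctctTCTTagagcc
The arms pair fully in all 7 forms, which differ in the letters of the pairs and in the loop. No match was found in the annotated transcripts of Hist1h1a, Hist1h1b, Hist1h2ai, Hist1h2bc, Hist2h2be, Hist1h2bl, Hist1h2bn, Hist1h3h, Hist1h3i and Hist1h4k, which says only that these letters are not in those models. Some models ran on past the loop, by up to 4884 bases in Hist1h1d and 2445 in Hist4h4, and by 840 in Hist1h1c and 770 in Hist1h4d. The 13 genes with an annotated transcript of at least 1000 bases held 59.0% of the counts.

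Promoters are shown for genes whose values the results turn on. RefSeq (GRCm38.p6) gave a promoter for 36 of the 41 genes. The 250 bases before the start were searched on both strands for CCAAT. The reverse strand reads ATTGG. The other motifs were TATAAA, the H1 box AAACACA and the octamer ATTTGCAT, on both strands, and none of these motifs contains another. CCAAT stood in 29 of 36 promoters, against 37.49% of 27025 genes: in 5 of 5 H1, 3 of 3 H2A, 11 of 11 H2B, 7 of 7 H3 and 3 of 10 H4 genes. TATAAA stood in 20 of 36 (14.33% of all genes), AAACACA in 5, of which 4 were H1 genes (7.2%), and ATTTGCAT in 7, of which 5 were H2B and 2 H2A genes (1.81%). The last 150 bases before the start follow, on the strand of the gene, with these motifs in capitals.
Hist1h1c (plus strand): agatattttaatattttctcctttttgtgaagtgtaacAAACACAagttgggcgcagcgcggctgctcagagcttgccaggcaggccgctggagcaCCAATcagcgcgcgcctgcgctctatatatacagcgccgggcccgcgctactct
Hist1h1a (plus strand): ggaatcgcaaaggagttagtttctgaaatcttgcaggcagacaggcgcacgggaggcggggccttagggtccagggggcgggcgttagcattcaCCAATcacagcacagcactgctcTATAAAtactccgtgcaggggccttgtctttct
Hist3h2ba (plus strand): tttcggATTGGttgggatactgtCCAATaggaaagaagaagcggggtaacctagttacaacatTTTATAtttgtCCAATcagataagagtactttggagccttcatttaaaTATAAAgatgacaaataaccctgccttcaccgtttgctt
Hist1h2bk (plus strand): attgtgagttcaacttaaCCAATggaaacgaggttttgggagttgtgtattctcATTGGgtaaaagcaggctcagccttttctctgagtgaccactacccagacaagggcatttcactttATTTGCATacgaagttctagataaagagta
Hist1h4d (plus strand): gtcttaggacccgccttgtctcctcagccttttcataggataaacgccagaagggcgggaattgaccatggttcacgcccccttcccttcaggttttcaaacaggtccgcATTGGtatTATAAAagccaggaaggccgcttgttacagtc
Hist1h4i (minus strand): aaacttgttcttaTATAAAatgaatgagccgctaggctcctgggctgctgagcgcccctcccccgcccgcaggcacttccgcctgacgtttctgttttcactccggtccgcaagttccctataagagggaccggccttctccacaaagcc
Hist4h4 (minus strand): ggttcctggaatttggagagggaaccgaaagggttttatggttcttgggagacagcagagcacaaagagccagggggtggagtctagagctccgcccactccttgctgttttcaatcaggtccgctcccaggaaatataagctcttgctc
Hist4h4, on chromosome 6 and outside the clusters, held none of the 4 motifs in the printed window. Neither did Hist1h4f, Hist1h4h and Hist1h4j, H4 genes on chromosome 13, in the same window. Of the 41 genes, 36 are on chromosome 13, 2 on chromosome 3 and 2 on chromosome 11.

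Library totals lay between 18.2 and 30.5 M counts (mean 24.2 M, SD 2.95, n = 30), and the median summed count of a histone gene over all libraries was 267. Most single values below therefore rest on few reads. Levels are given as CPM, the count scaled by the library total and its TMM factor, a scaling that takes most genes of a line as not changing. Embryonic stem cell markers did not exceed 0.383 CPM in NIH/3T3 and were at 375 CPM or above in CGR8, and Col1a1, a fibroblast collagen, was above 1600 CPM in NIH/3T3 and at most 0.727 CPM in CGR8. Thy1, another fibroblast marker, went against the label, with at most 0.093 CPM in NIH/3T3 and 1.48 to 4.52 CPM in CGR8. Histone genes also share sequence. The share of 75-base words found in no other gene ran from 6.5% in Hist1h3h to 100% in 4 genes, was under 50% in 11 genes, and had a median of 98.5% in H1, 65.6% in H2A, 63.4% in H2B, 53.9% in H3 and 77.6% in H4. How reads that fit several genes were counted is not given in the sources used here, so the split between near-identical copies is uncertain.

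Summed over the 41 genes, histone RNA was higher under cycloheximide than at 0 h in both lines, by different courses. In NIH/3T3 the sum was 11.8, 9.91 and 11.8 CPM at 0 h, 15.7, 12.8 and 16.7 at 1 h, 21.8, 27.1 and 25.7 at 2 h, 26.5, 21.4 and 23.8 at 5 h and 22.2, 25.2 and 24.6 at 48 h (replicates A, B and C). The 1 h libraries already lay above all 0 h libraries, and the level stayed at about 24 CPM from 2 h on. In CGR8 it was 28.7, 23.3 and 26.0 CPM at 0 h, 35.0, 37.3 and 37.5 at 1 h, 41.7, 49.6 and 54.2 at 2 h, 68.4, 78.5 and 55.7 at 5 h and 43.8, 40.8 and 38.0 at 48 h. Here the sum went up to 5 h and was lower again at 48 h, with no overlap between the 5 h and 48 h libraries, nor between 48 h and 0 h. Ratios of group means to 0 h were 1.35, 2.22, 2.14 and 2.15 in NIH/3T3 and 1.41, 1.87, 2.60 and 1.57 in CGR8, at 1, 2, 5 and 48 h. Since these are cultures of mixed cells, more cells in S phase and more histone RNA per cell cannot be told apart. All comparisons with 0 h in a line share the same 3 control libraries.

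**Figure D1:**
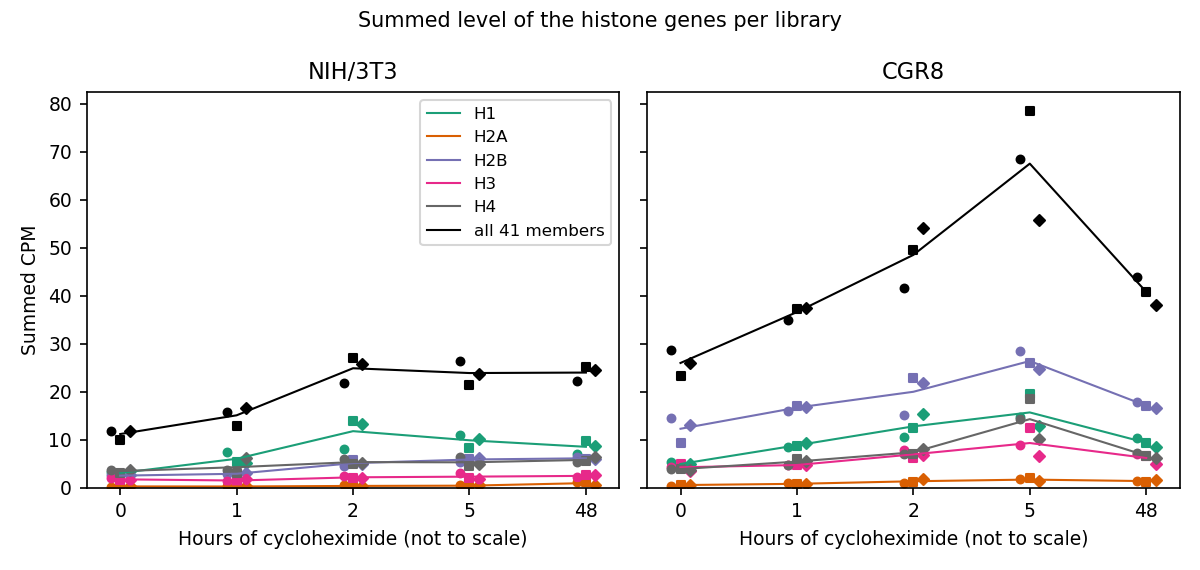
Summed CPM (vertical axis) of the 41 histone genes and of each family in every library, by hours of cycloheximide (horizontal axis, not to scale), with NIH/3T3 on the left and CGR8 on the right. Circles, squares and diamonds are replicates A, B and C and lines join group means. The CGR8 total peaks at 5 h (55.7 to 78.5 CPM), while the NIH/3T3 total stays near 24 CPM from 2 h to 48 h.

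Hist1h2bc and Hist1h1c carried 22.3% and 19.6% of all histone counts. Without them the ratios to 0 h were 1.12, 1.51, 1.52 and 1.65 in NIH/3T3 and 1.34, 1.89, 3.08 and 1.72 in CGR8. In NIH/3T3 these genes thus made up a large part of the change, and in CGR8 at 5 h the other 39 genes moved further than they did. By family, the ratio of the sums at 5 h to 0 h in CGR8 was 3.67 for H4, 3.16 for H1, 2.99 for H2A, 2.18 for H3 and 2.15 for H2B. In NIH/3T3 the H1 sum had the highest ratio at 2 h, 3.81, and H1 went from 27.6% to 46.8% of histone CPM between 0 h and 2 h. In CGR8 that share went from 19.1% to 26.2%. At 48 h the ratios in NIH/3T3 were 3.35 for H2A, 2.76 for H1, 2.42 for H2B, 1.67 for H4 and 1.40 for H3. The H2A ratio rests on 4, 6 and 13 counts at 0 h and 32, 27 and 12 at 48 h. None of the 3 H2A genes had enough counts to pass the filter there. Their log2 changes without a filter ran from -0.65 to 2.32.

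Gene by gene, the rise was broadest in CGR8 at 5 h. All 41 genes had a higher mean than at 0 h, and in 35 of 41 every 5 h library was above every 0 h library, against 23.6% of 18284 genes with a summed count of at least 100. These 35 were 4 of 5 H1, 2 of 3 H2A, 11 of 13 H2B, 7 of 9 H3 and 11 of 11 H4 genes. At 1, 2 and 48 h in CGR8 the libraries were higher without overlap for 11 (11.6% of those genes), 23 (14%) and 17 genes (21.4%), and at 48 h they were lower without overlap for 3 (22.7%). The corresponding counts in NIH/3T3 were 4 (5.84%), 10 (17.3%), 9 (25.5%) and 13 (29%) at 1, 2, 5 and 48 h, with 2 lower at 1 h (6.28%). The shares that were higher at 5 and 48 h in NIH/3T3 are near those of all genes.

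Tests were made across all genes with edgeR's quasi-likelihood test and Benjamini-Hochberg adjustment, with calls made where the adjusted p lay under 0.05. Where no other tool is named, called and not called refer to that test. Only 13 of the 41 genes in NIH/3T3 and 36 in CGR8 had enough counts to be tested, 1 and 7 of them only through the 5 h libraries, so the counts below are no statement about all 41, and a gene let in only by its high 5 h libraries was bound to differ there. In CGR8, 11 of 36 tested genes were called higher at 2 h (8.97% of all 15933 genes tested were), 33 at 5 h (24.9%) and 9 at 48 h (12.2%), with 1 lower at 48 h (15.6%). At 1 h, 0 of 36 were called higher by edgeR (0.144% of all genes were), and 9 had an unadjusted p under 0.05. DESeq2 called 2 higher there (0.49% of all genes by that tool) and limma's voom 6 (3.26%). In NIH/3T3, 1 of 13 was called higher at 1 h (0.653% of all 13941 genes tested), 4 at 2 h (16.1%), 5 at 5 h (24%) and 5 at 48 h (26.7%). With no filter on low counts all 41 genes could be tested, and 2, 13, 35 and 9 of them were called higher in CGR8 (0.413%, 3.96%, 11.6% and 6.67% of 33433 genes) and 1, 4, 6 and 9 in NIH/3T3 (0.753%, 7.31%, 10.7% and 12.7% of 30551). The median log2 fold change of all 41 in that fit was 0.34, 0.73, 1.62 and 0.59 in CGR8 and 0.04, 0.59, 0.50 and 0.56 in NIH/3T3. Medians of all genes lay near 0, which follows from TMM scaling and is no separate comparison. With the filter, 52.1% of the 15933 genes tested were called in CGR8 at 5 h, higher or lower. Of the 33 calls at 5 h in CGR8, 25 held when each library in turn was left out. The same was true of 6 of 11 at 2 h and 5 of 10 at 48 h in CGR8, and of 0 of 1, 2 of 4, 2 of 5 and 3 of 5 in NIH/3T3 at 1, 2, 5 and 48 h. The number called fell to 6 without 2 h C at 2 h in CGR8, to 5 without 48 h A and 6 without 0 h B or 0 h C at 48 h in CGR8, and to 2 without 0 h A at 2 h in NIH/3T3. At 48 h in NIH/3T3 it went up to 8 or 9 without 0 h A or C or any 1 library of 1, 2 or 5 h, and at 1 h in CGR8 to 2 without 2 h A and 1 without 2 h C.

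**Figure D2:**
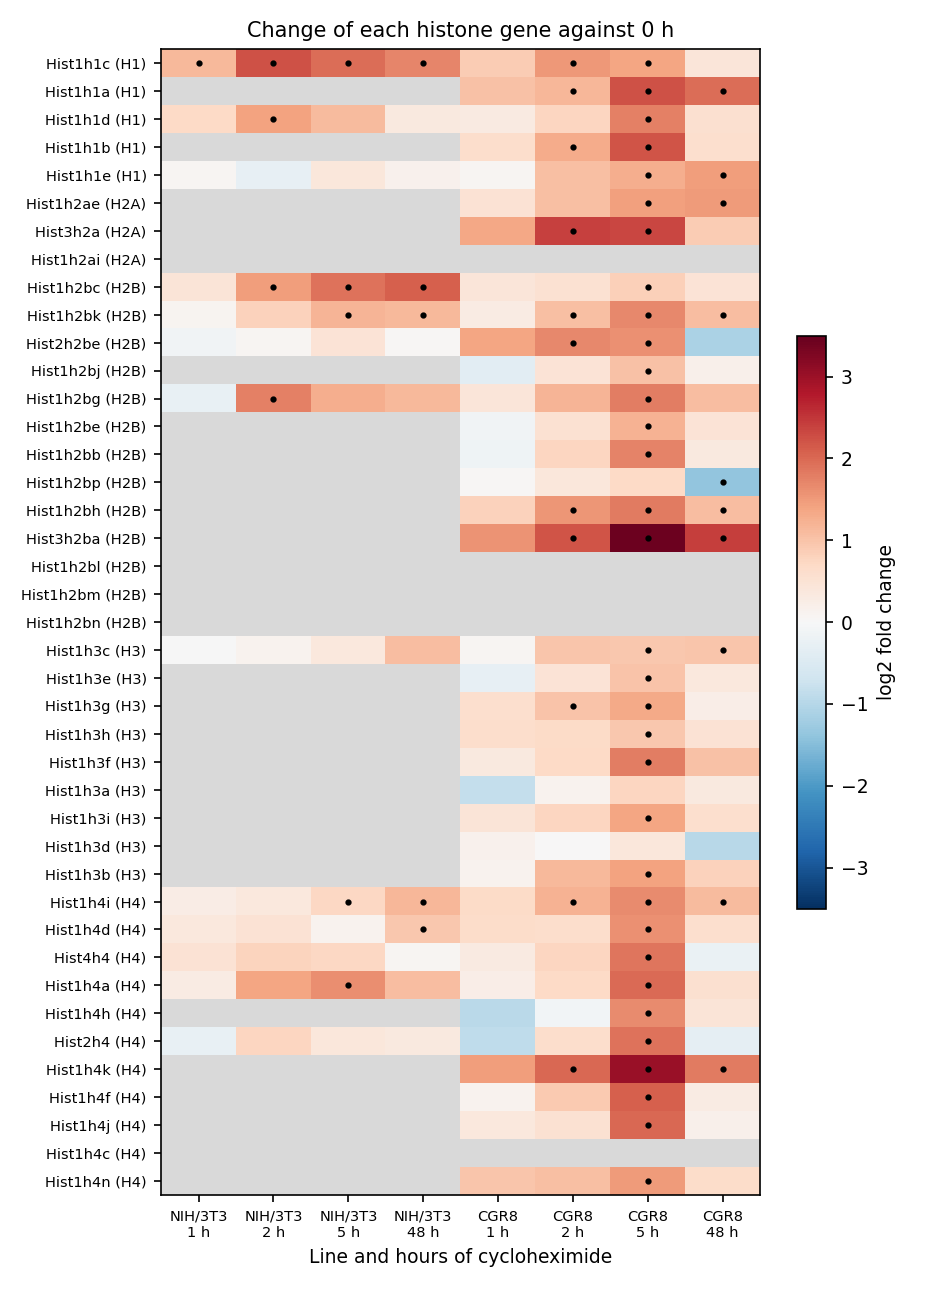
Log2 fold change against 0 h (colour scale) of each of the 41 histone genes (rows, by family and mean level) in each line and time (columns); a dot marks an adjusted p under 0.05 and grey a gene with too few counts to test. The CGR8 5 h column has 33 dots, and the dots in NIH/3T3 fall on a few rows, with Hist1h1c the only gene called at all 4 times.

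Linker histones bind the DNA between nucleosomes and compact chromatin. Hist1h1c (ENSMUSG00000036181, now H1f2) was the most counted of them and the only histone gene called at each time in NIH/3T3. There it was at 2.42, 1.58 and 2.56 CPM at 0 h, 5.79, 4.49 and 4.14 at 1 h, 6.82, 12.4 and 11.8 at 2 h, 9.39, 7.19 and 8.93 at 5 h, and 6.13, 8.26 and 7.40 at 48 h. All treated libraries lay above all 0 h libraries, by a log2 fold change of 1.14 ± 0.25 (standard error; adjusted p = 0.039, edgeR) at 1 h, 2.24 ± 0.24 (adjusted p = 5.69e-06) at 2 h, 1.95 ± 0.24 (adjusted p = 7.35e-06) at 5 h and 1.72 ± 0.24 (adjusted p = 2.16e-05) at 48 h. The 1 h call was lost without any of 10 single libraries, which include every 0 h library and 1 h A and B, with log2 changes of 0.95 to 1.28 and adjusted p up to 0.156. In CGR8 it went from 3.73, 2.38 and 3.14 CPM at 0 h to 5.49, 5.61 and 6.25 at 1 h, 7.27, 8.56 and 10.6 at 2 h and 8.22, 9.03 and 6.81 at 5 h. At 48 h it was lower again, at 4.40, 4.33 and 3.79 CPM, still above all 0 h libraries. Its log2 change there was 1.51 ± 0.18 at 2 h (adjusted p = 8.46e-05), 1.37 ± 0.18 at 5 h (adjusted p = 2.04e-05) and 0.43 ± 0.19 at 48 h (adjusted p = 0.0952).

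Hist1h1a (ENSMUSG00000049539, now H1f1) had a different course. In CGR8 it stood at 0.739, 1.05 and 0.879 CPM at 0 h, 1.59, 1.80 and 2.58 at 2 h, 3.73, 5.10 and 3.58 at 5 h and 4.0, 3.47 and 2.80 at 48 h. It therefore remained high at 48 h, with log2 changes of 1.17 ± 0.25 (adjusted p = 0.00485), 2.22 ± 0.24 (adjusted p = 3.57e-06) and 1.95 ± 0.24 (adjusted p = 2.1e-05) at 2, 5 and 48 h. No NIH/3T3 library exceeded 0.459 CPM, and it was not tested there. Hist1h1d (ENSMUSG00000052565, now H1f3) went from 0.450, 0.727 and 0.377 CPM at 0 h to 1.51, 2.55 and 1.24 at 5 h in CGR8, a log2 change of 1.75 ± 0.30 (adjusted p = 1.77e-04), and was at 0.734, 0.784 and 0.782 CPM at 48 h. NIH/3T3 had a call at 2 h (1.41 ± 0.53, adjusted p = 0.0472), a call lost without any of 8 single libraries, among them 0 h A (1.13, adjusted p = 0.151) and 2 h B (0.99, adjusted p = 0.233).

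The other linker histone genes, Hist1h1b and Hist1h1e, are named here after their values were seen. In CGR8 Hist1h1b was at 0.257, 0.121 and 0.419 CPM at 0 h and 0.888, 1.91 and 0.934 at 5 h, a log2 change of 2.20 ± 0.41 (adjusted p = 3.54e-04), with no overlap. In NIH/3T3 its 5 h values of 0.288, 0.0425 and 0.232 CPM lay within the range of 0 h, 0.395, 0.214 and 0.0658. Hist1h1e was called in CGR8 at 5 h (1.27 ± 0.46, adjusted p = 0.0288) and at 48 h (1.46 ± 0.44, adjusted p = 0.0212), where its values were 0.844, 0.411 and 0.618 CPM against 0.289, 0.202 and 0.168 at 0 h. The 5 h call was lost without 0 h B, 0 h C or 5 h B (0.74, adjusted p = 0.213), and the 48 h call without 0 h B, 0 h C, 48 h A (1.17, adjusted p = 0.102) or 48 h C.

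Histones H2A and H2B form dimers that flank the central H3 and H4 of the nucleosome. H2A was the least counted family. Hist1h2ae (ENSMUSG00000069272) rose in CGR8 from 0.161, 0.363 and 0.461 CPM at 0 h to 0.755, 1.18 and 0.700 at 5 h and stayed at 0.844, 0.746 and 1.15 at 48 h, with log2 changes of 1.44 ± 0.38 (adjusted p = 0.00523) and 1.50 ± 0.38 (adjusted p = 0.00694). Hist3h2a (ENSMUSG00000078851), which is on chromosome 11 beside Hist3h2ba, stood at 0.161, 0.0807 and 0.0419 CPM at 0 h, 0.387, 0.495 and 0.747 at 2 h, 0.577, 0.540 and 0.467 at 5 h and 0.330, 0.187 and 0.0412 at 48 h. Its change was 2.40 ± 0.53 at 2 h (adjusted p = 0.00649) and 2.34 ± 0.54 at 5 h (adjusted p = 0.00195), but it passed the count filter only through the 5 h libraries. In NIH/3T3 it was not tested, and its 48 h values of 0.752, 0.710 and 0.156 CPM stood beside 0.0988, 0.171 and 0.0658 at 0 h. Hist1h2ai (ENSMUSG00000071516) had too few counts in both lines, with 0.444, 0.344 and 0.156 CPM at 5 h and 0.128, 0.161 and 0.168 at 0 h in CGR8.

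Among H2B genes, Hist1h2bc (ENSMUSG00000018102) was the most counted histone gene and behaved differently in the lines. Its NIH/3T3 means went up at each time, from 0.889, 0.427 and 0.888 CPM at 0 h through 1.01, 0.839 and 1.23 at 1 h, 1.64, 2.44 and 1.97 at 2 h and 2.31, 2.89 and 3.21 at 5 h to 3.42, 2.80 and 3.18 at 48 h. The log2 changes were 1.46 ± 0.26 (adjusted p = 7.36e-04), 1.91 ± 0.25 (adjusted p = 1.38e-05) and 2.08 ± 0.25 (adjusted p = 3.99e-06) at 2, 5 and 48 h. CGR8 held more of it from the start, 11, 5.25 and 9.38 CPM at 0 h, with 7.40, 15.3 and 14.6 at 2 h, 17.1, 12.8 and 15.9 at 5 h and 11.6, 11.6 and 12.7 at 48 h. There the change was called at 5 h (0.83 ± 0.25, adjusted p = 0.0106) and not at 48 h (0.48 ± 0.25, adjusted p = 0.166).

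Hist3h2ba (ENSMUSG00000056895) had the largest called rise in CGR8 at 5 h among genes of at least 1 CPM there. Its CGR8 values were 0.0963, 0.0807 and 0.126 CPM at 0 h, which are 3, 2 and 3 counts, then 0.343, 0.221 and 0.354 at 1 h, 0.344, 0.601 and 0.486 at 2 h, 1.69, 0.834 and 0.895 at 5 h and 0.661, 0.672 and 0.329 at 48 h. The log2 changes were 2.21 ± 0.50 (adjusted p = 0.00769), 3.44 ± 0.45 (adjusted p = 1.87e-05) and 2.42 ± 0.49 (adjusted p = 0.00164) at 2, 5 and 48 h, and every library after 0 h lay above the 0 h libraries. In NIH/3T3 it had 0 counts in all but 1 library at 2 h and 1 at 5 h. Hist2h2be (ENSMUSG00000068854), a gene on chromosome 3, was high in CGR8 only for a time: 0.385, 0.525 and 0.628 CPM at 0 h, 0.980, 1.50 and 1.45 at 1 h, 1.03, 2.09 and 1.72 at 2 h, 1.20, 1.82 and 1.60 at 5 h and 0.294, 0.224 and 0.165 at 48 h. It rose by 1.68 ± 0.31 at 2 h (adjusted p = 0.00217) and 1.59 ± 0.31 at 5 h (adjusted p = 5.84e-04). At 48 h it lay below all 0 h libraries, at -1.12 ± 0.41 (adjusted p = 0.0526), a difference that was called by voom (-1.09, adjusted p = 0.0267) and with the compared groups alone (adjusted p = 0.0472). In NIH/3T3 edgeR called it at no time and voom at 5 h (1.11, adjusted p = 0.0154).

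Hist1h2bk (ENSMUSG00000062727) was called in both lines at 5 and 48 h. In CGR8 it had 0.674, 0.484 and 0.670 CPM at 0 h, 2.44, 2.26 and 1.21 at 5 h and 1.39, 1.38 and 1.11 at 48 h, with log2 changes of 1.67 ± 0.27 (adjusted p = 1.02e-04) and 1.08 ± 0.27 (adjusted p = 0.00768). In NIH/3T3 the changes were 1.19 ± 0.40 (adjusted p = 0.0209) and 1.14 ± 0.41 (adjusted p = 0.026), from 0.346, 0.171 and 0.197 CPM at 0 h to 0.577, 0.425 and 0.604 at 5 h and 0.413, 0.710 and 0.417 at 48 h. Both NIH/3T3 calls were lost without 0 h B or 0 h C, the 5 h call also without 5 h A (1.14, adjusted p = 0.061) or 5 h C (1.10, adjusted p = 0.0648) and in DESeq2 (adjusted p = 0.0529), and the 48 h call without 48 h B (0.83, adjusted p = 0.152) and in DESeq2 (adjusted p = 0.0714). At 2 h in CGR8 its change of 1.04 ± 0.27 (adjusted p = 0.0166) was lost without 0 h B (adjusted p = 0.0537) or 2 h C (adjusted p = 0.0594).

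Of the 13 H2B genes, 11 had all 5 h libraries above all 0 h libraries in CGR8, and of the 10 tested, 9 were called higher at 5 h and 3 at 48 h. The exceptions are named after their values were seen. Hist1h2bp was not called at 5 h (0.70 ± 0.37, adjusted p = 0.131) and was called lower than at 0 h at 48 h, the only such histone gene by edgeR in either line, with 0.147, 0.261 and 0.0823 CPM against 0.418, 0.525 and 0.377, a log2 change of -1.38 ± 0.47 (adjusted p = 0.0373). That call was lost without any 0 h library, 48 h A (-1.30, adjusted p = 0.103) or 48 h C (-1.09, adjusted p = 0.145) and in DESeq2 (adjusted p = 0.0611). In NIH/3T3, Hist1h2bg was called at 2 h (1.75 ± 0.51, adjusted p = 0.015) and lost without 0 h A (1.43, adjusted p = 0.0617), 2 h B (1.66, adjusted p = 0.0503) or 2 h C (1.62, adjusted p = 0.0588).

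H3 and H4 form the core of the nucleosome, and H3 tails carry many of the marks of active and silent chromatin. H3 genes had the lowest median change of the families in CGR8 at 5 h, a log2 fold change of 0.97 over all 9 genes in the fit without a filter, with values from 0.39 to 1.75. Of the 9 tested, 7 were called. Hist1h3c (ENSMUSG00000069310) went from 0.931, 0.888 and 0.670 CPM at 0 h to 2.22, 1.52 and 1.13 at 5 h and 2.17, 1.72 and 0.988 at 48 h, changes of 0.95 ± 0.34 (adjusted p = 0.0267) and 0.96 ± 0.33 (adjusted p = 0.0398). Its 5 h call was lost without 0 h C (0.82, adjusted p = 0.092) or 5 h A (0.67, adjusted p = 0.148), and its 48 h call without any of 6 single libraries (0.70 to 1.06, adjusted p up to 0.179). Hist1h3e (ENSMUSG00000069273) changed by 1.00 ± 0.31 at 5 h (adjusted p = 0.0136), a call lost without 0 h C (0.85, adjusted p = 0.0585) or 5 h B (0.67, adjusted p = 0.0981). Hist1h3g (ENSMUSG00000099517) changed by 1.33 ± 0.33 (adjusted p = 0.00345), from 0.578, 0.565 and 0.461 CPM to 1.29, 1.87 and 0.973. Hist1h3f, named after its values were seen, had the largest change of the family, 1.78 ± 0.36 (adjusted p = 7.51e-04). Not called were Hist1h3a (0.74 ± 0.44, adjusted p = 0.171) and Hist1h3d (0.41 ± 0.38, adjusted p = 0.378). H3 genes also had the least unique sequence, so that the split between them is the least certain.

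H4 had the highest median in CGR8 at 5 h, 1.89 over all 11 genes in the fit without a filter, with values from 1.48 to 2.99, and in 11 of 11 every 5 h library lay above every 0 h library. The 10 genes that could be tested with the filter, 5 of them only through the 5 h libraries, were all called. The H4 sum was 4.01, 3.88 and 3.81 CPM at 0 h and 14.3, 18.6 and 10.1 at 5 h, and 7.19, 6.61 and 6.30 at 48 h. Hist1h4c, the H4 gene too low to test, stood at 0.711, 1.03 and 0.272 CPM at 5 h against 0.161, 0.0404 and 0.0838. Hist1h4i (ENSMUSG00000060639), the most counted H4 gene, rose in both lines. In CGR8 it had 1.09, 1.29 and 1.76 CPM at 0 h, 2.19, 3.18 and 4.18 at 2 h, 4.57, 5.06 and 3.46 at 5 h and 3.05, 3.21 and 2.68 at 48 h, with changes of 1.22 ± 0.28 (adjusted p = 0.00782), 1.66 ± 0.28 (adjusted p = 1.43e-04) and 1.12 ± 0.28 (adjusted p = 0.00714). In NIH/3T3 it had 0.938, 0.726 and 1.12 CPM at 0 h, 1.57, 1.45 and 1.67 at 5 h and 1.99, 2.00 and 2.34 at 48 h, with changes of 0.73 ± 0.24 (adjusted p = 0.0162) and 1.16 ± 0.23 (adjusted p = 4.71e-04). The 2 h call in CGR8 was lost without 2 h C (0.98, adjusted p = 0.061), and the 5 h call in NIH/3T3 without 0 h B (0.58, adjusted p = 0.0732) or 5 h C (0.68, adjusted p = 0.053).

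Hist1h4d (ENSMUSG00000061482) rose at different times in the lines. CGR8 had 0.642, 0.807 and 0.586 CPM at 0 h, 2.53, 2.21 and 1.44 at 5 h and 1.43, 0.858 and 0.782 at 48 h, a change of 1.59 ± 0.28 at 5 h (adjusted p = 2.68e-04). NIH/3T3 had nearly the same level at 0 h, 0.642, 0.641 and 0.625 CPM, with 0.824, 0.595 and 0.651 at 5 h and 0.977, 1.25 and 1.46 at 48 h, a change of 0.93 ± 0.29 at 48 h (adjusted p = 0.0136) that was lost without 48 h C (0.80, adjusted p = 0.0567). Hist4h4 (ENSMUSG00000096010) changed in CGR8 by 1.87 ± 0.47 at 5 h (adjusted p = 0.00373), from 0.289, 0.161 and 0.168 CPM to 0.711, 1.28 and 0.428, and was at 0.110, 0.112 and 0.329 CPM at 48 h. It passed the count filter only through the 5 h libraries. Named after their values were seen, Hist1h4k and Hist1h4a also changed. Hist1h4k went from 0.257, 0.0404 and 0.0419 CPM at 0 h (8, 1 and 1 counts) to 0.799, 1.47 and 0.856 at 5 h in CGR8, a change of 3.01 ± 0.50 (adjusted p = 1.48e-04), while NIH/3T3 had 0.148, 0.128 and 0.0986 at 0 h and 0.0824, 0.128 and 0.0930 at 5 h. Hist1h4a was called in NIH/3T3 at 5 h (1.64 ± 0.60, adjusted p = 0.03) with overlapping libraries. It is the NIH/3T3 gene that passed the count filter only through the 5 h libraries, and the call was lost without 0 h B (1.25, adjusted p = 0.113), 0 h C (1.87, adjusted p = 0.0564) or 5 h B (1.64, adjusted p = 0.0634).

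**Figure D3:**
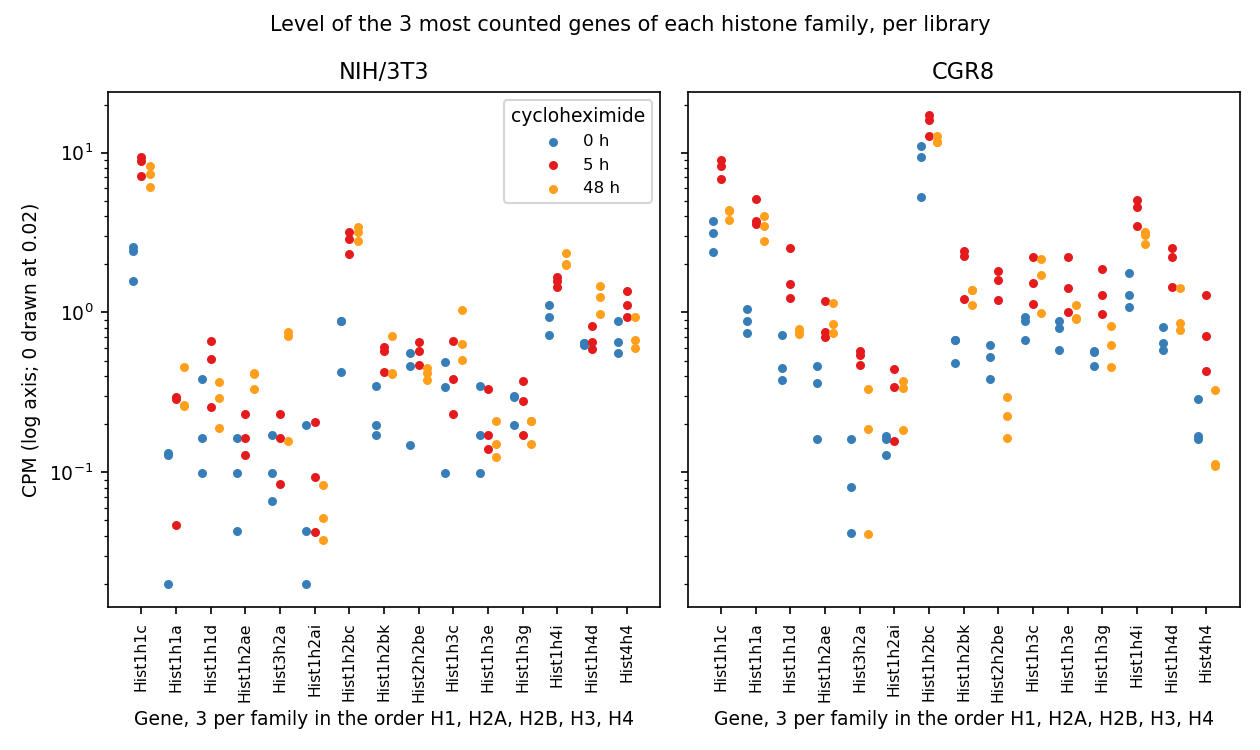
CPM (log axis, 0 drawn at 0.02) of the 3 most counted genes of each histone family in every library at 0, 5 and 48 h of cycloheximide, with NIH/3T3 on the left and CGR8 on the right; each point is 1 library. In CGR8 the 5 h points lie above the 0 h points for 14 of these 15 genes, the exception being Hist1h2ai. That held for 23.6% of genes with a summed count of at least 100. The 15 were chosen by mean CPM over all 30 libraries, the 5 h ones included, which favours this. The 48 h points of Hist2h2be lie below its 0 h points.

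The CGR8 libraries at 5 h differed from each other in these RNAs, and not in these alone. Over all genes kept, deviations from the group mean in 5 h C correlated with those of 0 h C (0.373) and against 0 h B (-0.488). Those of 5 h B correlated with 0 h B (0.37). Replicate B was highest and C lowest for H4 (14.3, 18.6 and 10.1 CPM in A, B and C), for H3 (8.88, 12.4 and 6.73) and for the 28 genes with short annotated transcripts (32.7, 41.2 and 24.3, against 10.1, 11.5 and 10.3 at 0 h). Hist1h2bc, with 17.1, 12.8 and 15.9, did not follow that order. Rpph1, the RNA of ribonuclease P, which has no poly(A) tail and is no histone gene, was at 3.46, 6.53 and 1.75 CPM at 5 h against 0.899, 0.969 and 1.51 at 0 h, a log2 change of 1.79 ± 0.39 (adjusted p = 0.00124, edgeR). The sum of the 7 untailed RNAs found among 9 on a list of them was 3.73, 7.17 and 2.49 CPM at 5 h, 1.38, 1.25 and 1.80 at 0 h and 0.918, 0.597 and 0.906 at 48 h. Rpph1 made up most of that sum at 0 h and at 5 h, so the sum is no separate observation. Rpph1 and histone RNAs were thus both high in the same libraries. The part of untailed RNAs in the histone result was not tested. With A and B left out, 15 of 38 tested histone genes were called higher at 5 h (13.9% of 16924 genes), and 18 of the 33 calls were lost: 1 of 5 H1, 1 of 2 H2A, 4 of 9 H2B, 6 of 7 H3 and 6 of 10 H4. Among these were Hist1h1e (0.27, adjusted p = 0.785), Hist1h2ae (1.13, adjusted p = 0.12), Hist1h2bc (0.89, adjusted p = 0.0586), Hist1h3c (0.43, adjusted p = 0.513), Hist1h3e (0.40, adjusted p = 0.477), Hist1h3g (0.85, adjusted p = 0.169) and Hist4h4 (1.00, adjusted p = 0.248). Rpph1 was not called either (0.65, adjusted p = 0.239). The lone C library is then assumed to vary like the other groups. Among the 11 tested genes with at least 80% unique words, 11 were called higher at 5 h with all libraries (24.9% of all genes tested were). Hist4h4 and Hist2h4 among them passed the count filter only through the 5 h libraries, so their calls there were favoured in advance. In NIH/3T3 the untailed RNAs summed to 1.19, 0.982 and 2.04 CPM at 0 h, 2.95, 3.04 and 1.89 at 2 h and 1.09, 0.835 and 0.886 at 48 h, when the histone sum was still high.

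The step from 5 to 48 h is given for each line, and the lines were not tested against each other over it. In CGR8, 39 of the 41 genes had a lower mean at 48 h than at 5 h, and for 25 every 48 h library lay below every 5 h library, against 28.6% of genes with a summed count of at least 100. Of 36 tested, 21 were called lower (28.6% of 15933 genes) and 0 higher (28.9%). By family these were 3 of 5 H1, 1 of 2 H2A, 7 of 10 H2B, 2 of 9 H3 and 8 of 10 H4. Of these 21 calls, 12 held when each library was left out in turn. The H2A call, Hist3h2a, and the H4 calls of Hist4h4, Hist2h4, Hist1h4f and Hist1h4j are of genes tested only through their 5 h libraries. For them a fall from 5 h was favoured in advance. The largest falls among named genes were those of Hist2h2be (-2.72 ± 0.36, adjusted p = 1.31e-05) and Hist4h4 (-2.10 ± 0.49, adjusted p = 0.00176), a gene that passed the filter through the 5 h libraries. Hist1h1c fell by 0.94 ± 0.18 (adjusted p = 3.14e-04), while Hist1h1a had no called change by edgeR (voom gave -0.49, adjusted p = 0.0222). Of the genes called higher at 5 h, 19 were called lower from 5 to 48 h. The 9 genes called higher at 48 h against 0 h were all among the 33 called at 5 h, comparisons that share their 0 h libraries. Without the 5 h libraries A and B, 4 were called lower (16.9%), and Hist4h4 was not among them (-1.22, adjusted p = 0.155). In NIH/3T3, 20 of the 41 genes had a higher mean at 48 h than at 5 h and 21 a lower one. Libraries lay apart for 5 higher and 3 lower (33.7% and 30.5% of genes with a summed count of at least 100). Of 13 tested there, only Hist1h4d was called between 5 and 48 h (0.81 ± 0.29, adjusted p = 0.0223, edgeR), where 34.1% of all genes were called higher. That call was lost without 5 h B, 5 h C, 48 h B or 48 h C (0.68 to 0.78, adjusted p up to 0.083). Without 48 h B 0 genes were called, and without 1 h B 3.

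The difference between the lines in the change from 0 h was tested as an interaction over all 30 libraries, with positive values where CGR8 rose more. At 1 and 2 h, edgeR called 0 of 36 histone genes (0.16% and 2.02% of all genes were called); at 1 and 2 h, 2 and 6 had an unadjusted p under 0.05. Voom called 1 at each time (1.48% and 4.04% of all genes by that tool) and DESeq2 0 (0.304% and 3.27%). At 5 h, 3 were called, all positive (8.18% of 17549 genes): Hist1h4k (3.35 ± 0.85, adjusted p = 0.00872), Hist1h4d (1.55 ± 0.44, adjusted p = 0.0176) and Hist1h1b (2.42 ± 0.77, adjusted p = 0.0354). The Hist1h4k call held without each library in turn. Hist1h4d lost its call without CGR8 5 h A (1.18, adjusted p = 0.103) or B (1.33, adjusted p = 0.064), and Hist1h1b without any of 7 libraries, among them NIH/3T3 0 h A (1.79, adjusted p = 0.208) and CGR8 5 h B (1.82, adjusted p = 0.117). With 5 h B of CGR8 left out 1 gene was called, and with 5 h C left out 5. Scaling by library size alone moves the all-gene median of the CGR8 5 h change to -0.12, and the share of positive calls among all genes called in this interaction from 61.6% to 31.5%; 2 histone genes were then called, both positive (3.77% of all genes). The 3 of 36 called by the TMM fit in edgeR are a share like that of all genes. Voom called more histone genes at 5 h (number given with the processing below), and its share of all genes there is not given. At 48 h, 3 were called, all negative (12.1% of 17549 genes), so that NIH/3T3 had the larger rise: Hist1h2bc (-1.61 ± 0.39, adjusted p = 0.00322), Hist1h1c (-1.30 ± 0.32, adjusted p = 0.00373) and Hist1h2bj (-1.70 ± 0.61, adjusted p = 0.043). The first 2 held without each library in turn. Hist1h2bj, which went from 0.0494, 0.128 and 0.132 to 0.338, 0.459 and 0.417 CPM in NIH/3T3 and from 0.482, 0.727 and 0.503 to 0.807, 0.485 and 0.618 in CGR8, lost its call without any of 15 single libraries (-1.42 to -1.91, adjusted p up to 0.124).

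At 0 h the histone genes were higher in CGR8 as a sum, and the largest single contribution was that of Hist1h2bc. The summed level (CPM scaled within each line) was 2.33 times higher in CGR8, 26.0 ± 2.74 against 11.2 ± 1.10 CPM (SD, n = 3), and 1.74 times without Hist1h2bc and Hist1h1c. Of 36 tested genes, 15 were called higher in CGR8 and 1 lower (42.8% and 36.3% of 17549 genes), and 7 of these calls held without each library in turn; without NIH/3T3 0 h C 10 were called. Over all 41 genes the libraries were apart for 14 higher and 2 lower (43.6% and 35.7% of genes with a summed count of at least 100), a smaller share than among all genes. Hist1h2bc was 11.1 times higher in CGR8 (log2 3.48 ± 0.29, adjusted p = 1.3e-11), and Hist1h1a differed by 3.12 ± 0.48 (adjusted p = 1.05e-06). Hist4h4 was lower in CGR8, with 0.289, 0.161 and 0.168 against 0.889, 0.555 and 0.658 CPM (-1.73 ± 0.51, adjusted p = 0.00313). For Hist3h2ba the NIH/3T3 libraries had 0 counts and the CGR8 libraries at most 3, the limit that a count of 0 allows, so no fold is given. Per kilobase of the longest annotated transcript, which lets genes be compared, the highest level in CGR8 was that of Hist1h2bc (7.39 CPM per kb), followed by Hist1h1c (1.98) and Hist1h4i (1.90), and in NIH/3T3 the highest were Hist1h1c (1.40), Hist1h4i (1.28) and Hist1h2bc (0.635).

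**Figure D4:**
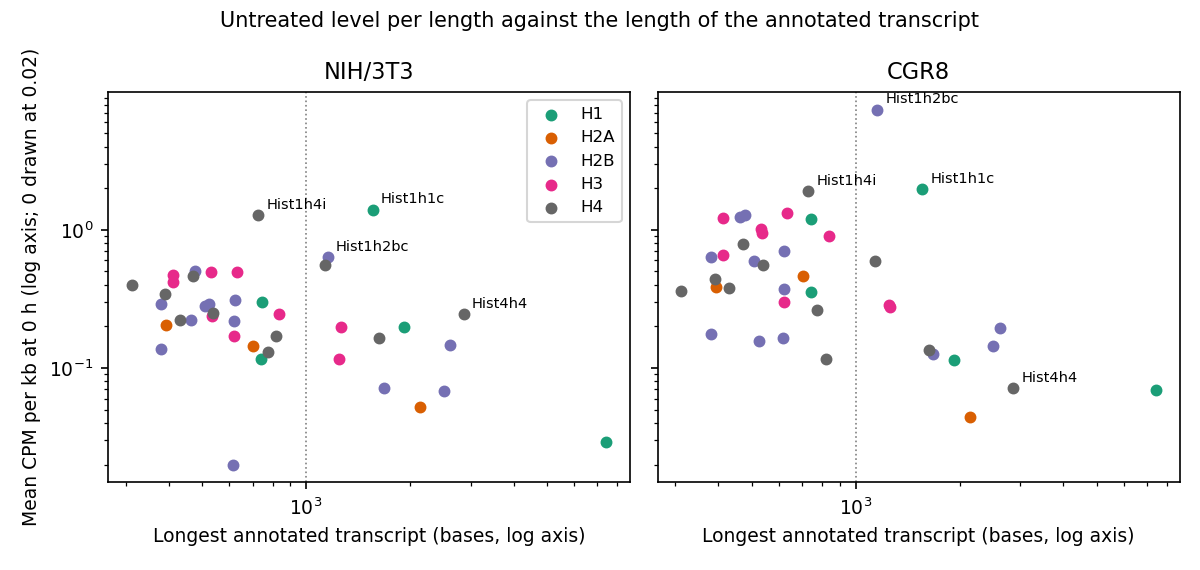
Mean CPM per kb at 0 h (vertical, log axis, 0 drawn at 0.02) against the length of the longest annotated transcript (horizontal, log axis) for the 41 histone genes in NIH/3T3 (left) and CGR8 (right), coloured by family; the dotted line marks 1000 bases. Hist1h2bc stands at 7.39 CPM per kb in CGR8 and 0.635 in NIH/3T3.

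Replacement histones are mostly made through the cell cycle from ordinary polyadenylated messages, though not every gene on the list need be. They serve as a comparison within the same libraries. Of 10 tested in NIH/3T3, 7, 5 and 3 were called higher at 2, 5 and 48 h and 0, 1 and 2 lower, where 16.1%, 24% and 26.7% of all genes were called higher and 18.9%, 27.1% and 25.6% lower. The count at 48 h is thus near the background. Of 11 tested in CGR8, 4, 8 and 1 were called higher and 0, 0 and 1 lower, against 8.97%, 24.9% and 12.2% of all genes higher and 11%, 27.2% and 15.6% lower. From 5 to 48 h 8 were called lower and 0 higher (28.6% and 28.9% of all genes). H3f3b, a source of the replacement form of H3, went in CGR8 from 534, 539 and 514 CPM at 0 h to 1240, 1270 and 1050 at 5 h and back to 531, 541 and 579 at 48 h, a change of 1.17 ± 0.11 at 5 h (adjusted p = 1.23e-06). The NIH/3T3 values went from 809, 910 and 892 to 1750, 1710 and 1660 CPM (0.97 ± 0.12, adjusted p = 5.78e-06). H3f3a, the other such gene, changed at 5 h by 1.08 ± 0.15 in CGR8 (adjusted p = 2.51e-05) and 0.78 ± 0.13 in NIH/3T3 (adjusted p = 1.18e-04). H2afz, a replacement H2A found at many promoters, changed at 5 h by 1.02 ± 0.16 in CGR8 (adjusted p = 1.13e-04). H1f0, the linker histone of slowly dividing and differentiated cells, rose in NIH/3T3 from 116, 111 and 120 CPM to 352, 345 and 342 at 48 h (1.58 ± 0.08, adjusted p = 5.29e-10) and in CGR8 by 0.57 ± 0.13 (adjusted p = 0.00341). H2afx, of which a phosphorylated form marks DNA breaks, rose in NIH/3T3 by 1.08 ± 0.13 at 48 h (adjusted p = 3.73e-06) and was called in CGR8 at no time by edgeR and at 5 h by voom (0.50, adjusted p = 0.000815).

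Genes of S phase, which supply the replication machinery, had other courses in NIH/3T3, in values set side by side and not tested against the histone genes. Of 32 tested, 9, 6 and 0 were called higher in NIH/3T3 at 2, 5 and 48 h and 1, 10 and 27 lower, with a median log2 change of -0.67 at 48 h. Beside the shares of all genes given for the replacement histones, the counts at 5 h are near the background, and the 27 lower at 48 h stand against 25.6%. In CGR8, 8, 17 and 2 were called higher and 0, 2 and 7 lower, and the median at 5 h was 0.29. The 17 higher at 5 h stand against 24.9% of all genes and the 7 lower at 48 h against 15.6%. Pcna, the sliding clamp of replication, went in NIH/3T3 from 122, 120 and 116 CPM to 51.6, 46.2 and 52.5 at 48 h (-1.25 ± 0.10, adjusted p = 5.35e-08), while the summed histone level there was 2.15 times that of 0 h. In CGR8 Pcna rose at 5 h (0.75 ± 0.11, adjusted p = 4.22e-05). Mcm5, a subunit of the replicative helicase, and Rrm2, a subunit of ribonucleotide reductase, fell in NIH/3T3 at 48 h (-0.61 ± 0.09, adjusted p = 2.4e-05, and -0.91 ± 0.08, adjusted p = 1.15e-07). Ccne2, a cyclin of S-phase entry, rose at 5 h in NIH/3T3 (0.96 ± 0.12, adjusted p = 9.81e-06) and CGR8 (1.23 ± 0.23, adjusted p = 3.75e-04) and was lower at 48 h in both (-0.74 ± 0.12, adjusted p = 1.31e-04, and -1.07 ± 0.24, adjusted p = 0.00323).

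**Figure D5:**
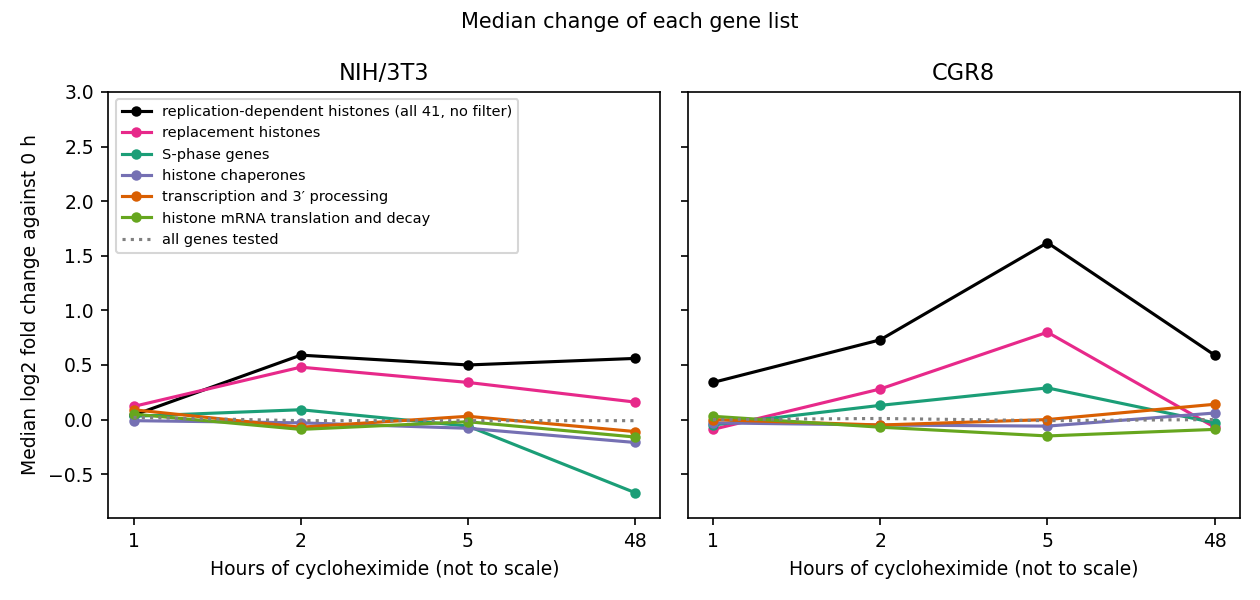
Median log2 fold change against 0 h (vertical axis) by hours of cycloheximide (horizontal axis, not to scale) for all 41 histone genes in the fit without a filter, for the tested genes of 5 other lists and for all genes tested (dotted), with NIH/3T3 on the left and CGR8 on the right. The histone line reaches 1.62 in CGR8 at 5 h, and in NIH/3T3 at 48 h it stands at 0.56 while the S-phase genes stand at -0.67.

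The factors that make, hold and degrade histone messages were called in both directions at 5 h, where 24.9% of all genes were called higher and 27.2% lower in CGR8 and 24% and 27.1% in NIH/3T3. Of 22 genes for histone transcription and 3' end processing, 4 were called higher and 7 lower in CGR8 at 5 h, and 3 and 5 in NIH/3T3. Of the genes for translation and decay of histone messages, 6 and 6 were called in CGR8 (of 22) and 6 and 6 in NIH/3T3 (of 21), and of 23 histone chaperones 7 and 7 in CGR8 and 5 and 10 in NIH/3T3. Slbp, the stem-loop binding protein, went in CGR8 from 114, 103 and 123 CPM to 187, 167 and 179 at 5 h (0.65 ± 0.11, adjusted p = 1.54e-04) and 92.3, 106 and 98.0 at 48 h. It also rose in NIH/3T3 at 2 h (0.45 ± 0.11, adjusted p = 0.00456) was not called at 5 h (0.07 ± 0.11, adjusted p = 0.611), and was lower at 48 h (-0.28 ± 0.11, adjusted p = 0.0347), a call lost without any of 5 single libraries (adjusted p up to 0.0955). Npat, the coactivator of histone transcription at cyclin E-Cdk2, was at -0.65 ± 0.23 in CGR8 at 5 h (adjusted p = 0.0279), a call lost without 0 h A, 0 h C, 5 h A (-0.39, adjusted p = 0.133) or 5 h B, and without both A and B of 5 h (-0.17, adjusted p = 0.619). Casp8ap2, a scaffold of histone locus bodies, was called against 0 h at no time by edgeR. Voom called it in NIH/3T3 at 1 h (0.28, adjusted p = 0.0302) and in CGR8 at 5 h (-0.53, adjusted p = 0.00719). Lsm11, part of the U7 particle that cleaves the message, rose in CGR8 at 48 h (0.60 ± 0.10, adjusted p = 3.39e-04), and Zfp473, which acts with it, rose in NIH/3T3 at 48 h (1.45 ± 0.31, adjusted p = 8.97e-04). At 2 h Zfp473 was lower in NIH/3T3 (-1.26 ± 0.44, adjusted p = 0.0368), a call lost without any of 4 single libraries, and in CGR8 (-0.47 ± 0.11, adjusted p = 0.00999), a call lost without 2 h C (-0.39, adjusted p = 0.0588). Eri1, an exonuclease that trims the stem-loop end, fell in NIH/3T3 at 48 h (-0.43 ± 0.08, adjusted p = 2.59e-04). Upf1, a helicase needed for histone message decay, was lower in CGR8 at 5 h (-0.43 ± 0.11, adjusted p = 0.00406), though not without 5 h A and B (-0.36, adjusted p = 0.101). It was lower in NIH/3T3 at 5 h (-0.32 ± 0.12, adjusted p = 0.0342), a call lost without any of 6 single libraries. At 48 h in CGR8 it was higher (0.40 ± 0.11, adjusted p = 0.0124), a call lost without 0 h B (0.32, adjusted p = 0.0625) or 48 h C (0.37, adjusted p = 0.0534). The chaperones Asf1b and Chaf1a, which hand H3 and H4 to DNA, fell in NIH/3T3 at 5 h (-0.77 ± 0.10, adjusted p = 1.05e-05, and -0.76 ± 0.12, adjusted p = 5.59e-05), and Asf1b also at 48 h (-0.99 ± 0.10, adjusted p = 6.24e-07); neither was called against 0 h in CGR8 by edgeR, while voom called Chaf1a higher there at 48 h (0.19, adjusted p = 0.0289).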

How the data were processed

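RNA-seq was done on 30 libraries of 2 mouse lines. Per the file headers, the table that the authors deposited has whole-number counts for each gene and library; 30 columns were used and 0 left out. Per the submitters' processing notes, STAR, DESeq2 and GRCm39 were used, with versions and settings not given in the sources used here. Identifiers were paired with symbols without their version suffix (51880, 90.7%). Transcript lengths, stem-loops and shared 75-base words come from GENCODE M21 (GRCm38) and promoters from RefSeq (GRCm38.p6). Because that build differs from that of the counts, no coordinates are given.

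Counts were tested in R 4.3.3 with edgeR 4.0.16, in 1 model per line (15 libraries) with filterByExpr (minimum count 10, minimum total 15), TMM factors, the quasi-likelihood F test and Benjamini-Hochberg adjustment over all genes tested, at 0.05. Interactions and the contrast of the lines at 0 h used 1 model of all 30 libraries. Standard errors are the log2 fold change divided by the root of F. In all, 15 comparisons were made. Levels are CPM with TMM-scaled totals. The scripts were checked on simulated counts.

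Nothing in the labels says that replicates A, B and C were separate cultures, so p-values measure the spread between these libraries, which may be technical. The letters did not pair libraries: same-letter deviations correlated above 0.1 in 3 of 30 pairs in NIH/3T3 and 9 of 30 in CGR8. For different letters it was 5 of 60 and 14 of 60. In CGR8 some libraries of different letters deviated together, with a correlation of up to 0.615 (0 h B and 2 h A). The 5 h libraries were among them, with 0.519 for 5 h C and 2 h B. The source of this was not tested.

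Named genes are the 3 histone genes of each family with the highest mean CPM, the called gene with the largest rise and fall at each time and line (at least 1 CPM in the higher group), the 3 genes on each side of the minimum of 100 counts, and 18 context genes chosen by role; others are said to be named after their values were seen. The histone genes, lists and tests were chosen with earlier results of these data known. Alternatives were RLE factors or library size alone, DESeq2 1.42.0, voom in limma 3.58.1, leaving the filter off or asking for 5 CPM on average, a block for the replicate letter, a fit of only the groups compared, a minimum of 1000 counts, and each library left out. Leaving out CGR8 5 h A and B, and the genes with at least 80% unique words, were added after the data were seen.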

Additional observations from a re-analysis of the deposited data

Results flagged for a closer look

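For 6 histone genes the change from 0 h differed between the lines by the interaction test in edgeR, 3 of 36 at 5 h and 3 of 36 at 48 h. The share at 5 h is like the background, and that at 48 h is not above it. Of all genes, 8.18% were called with a more positive change in CGR8 at 5 h. At 48 h 12.1% were called with a more positive one in NIH/3T3. At 5 h CGR8 rose more than NIH/3T3 by a log2 difference of 3.35 for Hist1h4k (adjusted p = 0.00872), 1.55 for Hist1h4d (adjusted p = 0.0176) and 2.42 for Hist1h1b (adjusted p = 0.0354). At 48 h the difference was negative, with a larger rise in NIH/3T3: -1.30 for Hist1h1c (adjusted p = 0.00373), -1.61 for Hist1h2bc (adjusted p = 0.00322) and -1.70 for Hist1h2bj (adjusted p = 0.043). Hist1h4k, Hist1h1c and Hist1h2bc held when each library was left out in turn; the other three did not. In the CGR8 5 h libraries the untailed Rpph1 was also high (3.46, 6.53 and 1.75 CPM against 0.899, 0.969 and 1.51 at 0 h), and its part in the 5 h differences was not tested.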

How the results depend on the processing

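The number of histone genes called was within 1.5 times of the reported one with RLE factors in every comparison. Fewer or more were called as follows. Scaling by library size alone left 0 calls in NIH/3T3 at 1 h and gave 2 between 5 and 48 h. DESeq2 gave 2 in NIH/3T3 at 2 h and 2 in CGR8 at 1 h. Voom gave 6 in CGR8 at 1 h and 3 in NIH/3T3 between 5 and 48 h. For the difference between the lines it gave 1, 1, 13 and 5 at 1, 2, 5 and 48 h. The share of all genes called by voom is not given here at 5 and 48 h, so the 13 and 5 stand without a background. Without a filter, NIH/3T3 had 9 at 48 h and 2 between 5 and 48 h, and CGR8 had 2 at 1 h. With a mean of at least 5 CPM, under which few histone genes remain, NIH/3T3 had 1 at 2, 5 and 48 h and 0 between 5 and 48 h, CGR8 had 1, 1, 2 and 0 at 1, 2, 5 and 48 h and 1 between 5 and 48 h, the difference at 5 h had 0 and the contrast at 0 h 2. Fitting the compared groups alone gave 0 and 2 in NIH/3T3 at 1 and 2 h, 3 between 5 and 48 h, 5 in CGR8 at 2 h and 8 at 0 h between the lines. Restricting to genes of at least 1000 counts left 2, 3 and 3 in NIH/3T3 at 2, 5 and 48 h and 2, 3 and 1 in CGR8, and to genes of at least 80% unique words 2, 1 and 2 and 6, 11 and 3. Without CGR8 5 h A and B, 15 were called at 5 h and 4 between 5 and 48 h, and Hist1h2bk between 5 and 48 h turned to 0.11.

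Leaving out 1 library gave 0 to 1, 2 to 4, 4 to 6 and 5 to 9 calls in NIH/3T3 at 1, 2, 5 and 48 h, 0 to 3 between 5 and 48 h, 0 to 2, 6 to 12, 26 to 35 and 5 to 11 in CGR8, 14 to 25 between 5 and 48 h, 1 to 5 and 2 to 3 for the differences at 5 and 48 h, and 10 to 18 at 0 h. The log2 ratio of the summed levels between 5 and 48 h in NIH/3T3, 0.01, is without direction: it was -0.02 with RLE factors, -0.02 without Hist1h2bc, and -0.07 to 0.09 without 1 library (-0.03 without 48 h B, -0.01 without 48 h C, -0.07 without 5 h B). That of the lines at 0 h, 1.22, was 0.74 without Hist1h2bc. With the replicate block, 0, 3, 5 and 5 genes were called in NIH/3T3 and 0, 10, 33 and 11 in CGR8 at 1, 2, 5 and 48 h; since the letters do not pair libraries, its lost calls are not read as weaker effects. Causes of these changes were not tested, other than fewer genes tested under stricter limits. Depth limits single genes most: the median histone gene had 267 counts over 30 libraries.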
